A study of Notamacropus eugenii with 7 samples.

Results

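MiR-191 was described in the milk and blood serum of the tammar wallaby (Notamacropus eugenii, also called Macropus eugenii), a marsupial whose young completes most of its development on milk. It is 1 of the 346 miRNAs named in the deposited table and 1 of the 102 listed in at least 1 library, and it was selected on the values reported here, namely its high share of early milk and its milk to serum ratio. Its levels are therefore given as a description, with no test. Small RNA was sequenced from 5 samples of skim milk, collected at days 35 and 75 (phase 2A of lactation), days 120 and 175 (phase 2B) and day 250 (phase 3), and from 2 samples of maternal blood serum, collected at days 120 and 175. All donors were lactating females with no experimental treatment. Per the study's methods they were anaesthetised and given oxytocin to let down milk, and milk of several females was pooled for each day, so a milk library is an average over animals. Serum was taken from wallabies that also gave milk on these days, but per the methods from fewer females than the milk pools. Milk and serum thus share animals only in part. The series record also speaks of a duplicate for day 175, and whether the day 175 milk values include it is not known. Each combination of fluid and day has 1 column of values, taken here as 1 library, with no replicate error. The days are those of the sample labels, and the study's own text gives slightly earlier days for some of the same collections. The sample labels give the same RNA isolation kit for milk and serum, while the study's methods name another kit for serum. If the methods hold for these libraries, fluid and kit cannot be told apart.

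A miRNA is a short RNA that is loaded into an Argonaute protein and pairs, mainly through its seed, with messenger RNAs whose translation it lowers. MiR-191 is a widely expressed miRNA that is found in many epithelia, in blood cells and in cell-free body fluids, and it is often taken as a reference for miRNA measurements in plasma and serum. In breast and other epithelial tumours it has been studied for its effect on cell growth. In human and mouse it is encoded together with miR-425 in an intron of DALRD3, and both miRNAs are cut from the same primary transcript. In the RefSeq annotation of the wallaby (assembly mMacEug1.pri_v2) DALRD3 lies between NDUFAF3 and WDR6. The place of miR-191 in that assembly was not analysed here.

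The unit is the percent of all annotated miRNA reads of a library, rounded to 3 decimals. For miR-191 the rounding of 0.0005 percentage points either way is small beside shares of 5.77% and more. The deposited percentages carry no read counts, and the read totals in the study's text were not used here, so no counting interval is given. The listed shares summed to between 95.8% (milk day 175) and 99.6% (milk day 35). Of the 7 miRNAs taken as marks of mammary epithelium, 6 had values. The row of miR-200a is blank, although the study's text names arms of it among sequenced miRNAs, so a blank row is not read here as a miRNA that was not there. The 6 together took from 8.52% to 39.6% of milk and 1.41% and 1.599% of serum. The 8 taken as marks of blood cells summed to at most 0.056% in milk, and to 0.117% and 0.225% in serum. Most of the epithelial sum was miR-148 and miR-375, with 8.32% and 8.23% in milk day 120 and 0.2% and 1.20% in serum day 120. The study lists both as milk-enriched in these same samples. That this sum differed between the fluids therefore follows from the list and is no separate result. The sum of all blood cell marks was higher in serum, but the red blood cell marks alone did not separate the fluids. These took 0.047% of milk day 175 (miR-451 with 0.045%, miR-144 with 0.002%), against 0.042% of serum day 120 and 0.055% of serum day 175. The part of red blood cells in the low miR-191 share of milk day 175 was not tested.

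MiR-191 was the most abundant miRNA of milk on the first 3 days, and a major one of both fluids throughout. Its milk share was 40.4% on day 35 and 28.0% on day 75, reached 43.8% on day 120, and was 9.66% and 15.5% on days 175 and 250. The serum shares were 5.77% and 14.5% for days 120 and 175. The highest and the lowest milk value both fell in phase 2B, so the phase of lactation did not order the level. Over the 5 milk libraries the median was 28.0% and the highest share was 4.54 times the lowest. Over all 7 libraries it was 7.60 times the lowest. Milk days 35 and 120, with the highest shares, also had the fewest miRNAs above 0, at 42 and 57. Milk days 75, 175 and 250 had 74, 81 and 70. The study's text also gives days 35 and 120 the lowest proportions of reads assigned to miRNAs among the milk libraries. The part of library quality in these shares, and in the values computed from them below, was not tested.

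In order of level, milk day 120 stood 1.08-fold above milk day 35, which stood 1.44-fold above milk day 75. Milk day 250 followed, 1.81-fold lower, then serum day 175, milk day 175 and serum day 120. Milk day 250 and serum day 175 lay close together, at a ratio of 1.07. The milk and serum levels overlapped, because milk day 175 lay between both serum values. Without replicates, no neighbours in this order can be said to differ beyond their spread.

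**Figure D1:**
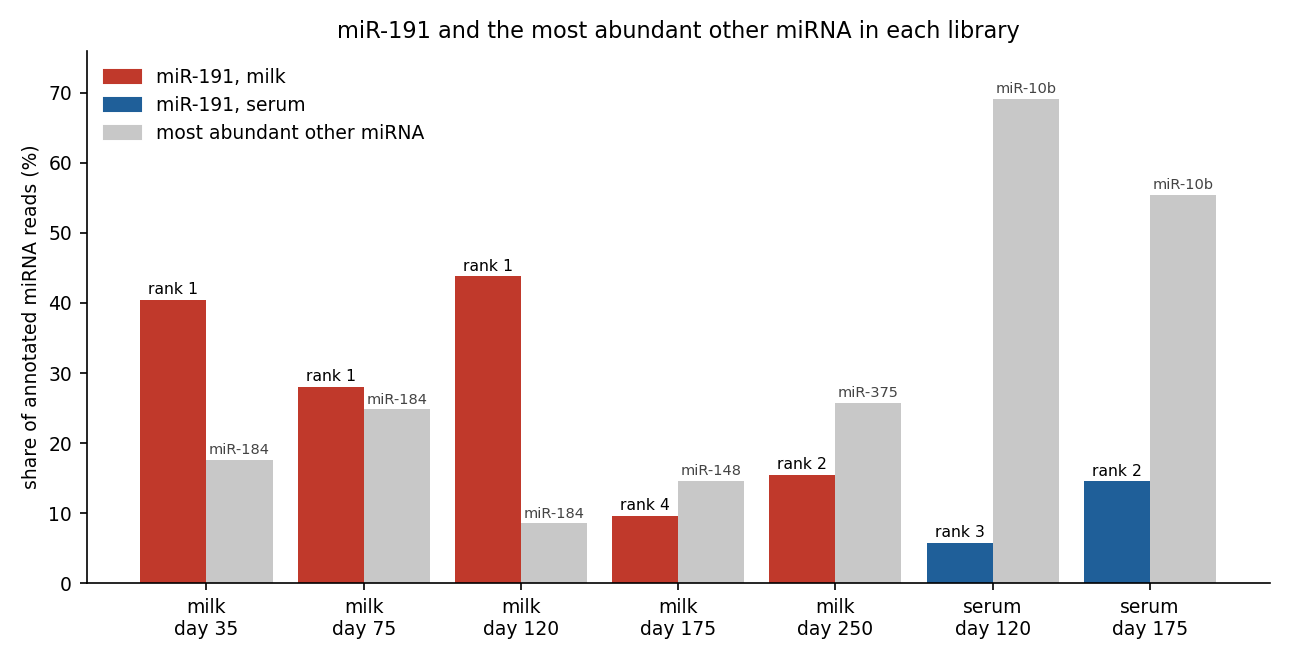
Share of annotated miRNA reads (%) of miR-191 (red in milk, blue in serum) and of the most abundant other miRNA (grey, named above the bar) in each of the 7 libraries, with the rank of miR-191 above its bar. MiR-191 exceeded every other miRNA in milk at days 35, 75 and 120, by 5.12-fold at day 120, and stood below miR-10b in both serum libraries.

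The lead of miR-191 over the next miRNA is a ratio within a library and does not depend on the total. At day 35 it was 2.30 times miR-184, a miRNA known from lens, cornea and nervous tissue. At day 75 miR-184 took 24.8%, and the lead shrank to 1.13-fold. At day 120 miR-184 had dropped to 8.56%, and miR-191 stood 5.12-fold above it and 5.27-fold above miR-148, a miRNA abundant in the milk of many mammals. How much of the change in the lead lay with each miRNA depends on the total used.

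At day 175 miR-191 stood at rank 4. Its share was 0.661 times that of miR-148, 0.706 times that of miR-30a and 0.987 times that of miR-375, a miRNA of endocrine and other secretory epithelium. Let-7f, of the let-7 family that times cell differentiation, came next, and miR-191 was 1.599 times as abundant. At day 250 miR-191 was 0.6002 times miR-375, at 25.8%, and 1.03 times miR-30a. The ranks 3 and 4 at day 175, and 2 and 3 at day 250, were therefore held by nearly equal shares.

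Both serum libraries were led by miR-10b, a miRNA encoded in a HOX gene cluster, with 69.2% at day 120 and 55.4% at day 175. MiR-191 was 0.0833 and 0.262 times as abundant. It stood below miR-10a at day 120, at a ratio of 0.8004, and above it at day 175, at a ratio of 1.38. With miR-10b left out of the total, miR-191 took 18.7% and 32.5% of the remaining serum reads, against 45.4% and 10.03% in milk of the same days.

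The weight of miR-191 in a library can also be read from its part of the sum of squared shares, where an even profile gives each miRNA little weight. This part was 76.9%, 47.5% and 86.3% on the first 3 milk days, and 12.2% and 17.6% on days 175 and 250. In serum it was 0.679% and 6.13%. The effective number of miRNAs, which is the inverse of that sum, was 4.67, 5.98, 4.44, 12.0 and 7.01 in milk in order of day. Computed without miR-191 it became 7.14, 5.87, 10.1, 11.01 and 6.03. Among the milk libraries, days 120 and 175 differed most in evenness on the full profile. These days were close to each other without this single miRNA.

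Between consecutive milk days the share of miR-191 moved by less than 2-fold at 3 of the 4 steps. It was 1.44-fold lower at day 75 than at day 35 (log2 -0.53), 1.56-fold higher at day 120 than at day 75 (log2 0.65) and 1.602-fold higher at day 250 than at day 175 (log2 0.68). At the step from day 120 to day 175 it was 4.54-fold lower (log2 -2.18). Over the whole period, from day 35 to day 250, it was 2.61-fold lower (log2 -1.39). The share therefore did not decline steadily, and on the percent scale the only step of over 2-fold between consecutive milk days was that from day 120 to day 175. On the centred log ratio and with median of ratios scaling, the step from day 175 to day 250 was also over 2-fold, at log2 1.76 and 1.69. The step from day 120 to day 175 was larger on these 2 scales, at log2 -3.06 and -3.19.

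For the step from day 120 to day 175, 59 miRNAs had at least 0.005% in 1 of the libraries or both. Of these, 6 were over 2-fold lower at day 175, miR-191 included, which is 10.2%, and 30 were over 2-fold higher. Among the others, miR-184 was lower by more than miR-191, with 8.56% at day 120 and 1.45% at day 175. For day 250 against day 35, 19 of 54 miRNAs were over 2-fold lower (35.2%). At least 15 others were lower by as much as miR-191 or more. In these counts miR-191 was among the few at the first comparison and among many at the second. As miR-191 was selected on these values, nothing is read from the shares.

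The share of miR-191 fell by 34.2 percentage points between days 120 and 175, which was 41.1% of the summed absolute differences of all miRNAs. The next largest difference was the gain of 10.3 points by miR-30a, an epithelial miRNA that was high in late milk. From day 75 to day 120 miR-191 gained 15.8 points while miR-184 fell by 16.3. From day 175 to day 250 it gained 5.81 points, behind miR-375 with 15.996. MiR-191 was thus the first or the second largest part of the change in composition at each of the 4 steps.

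**Figure D2:**
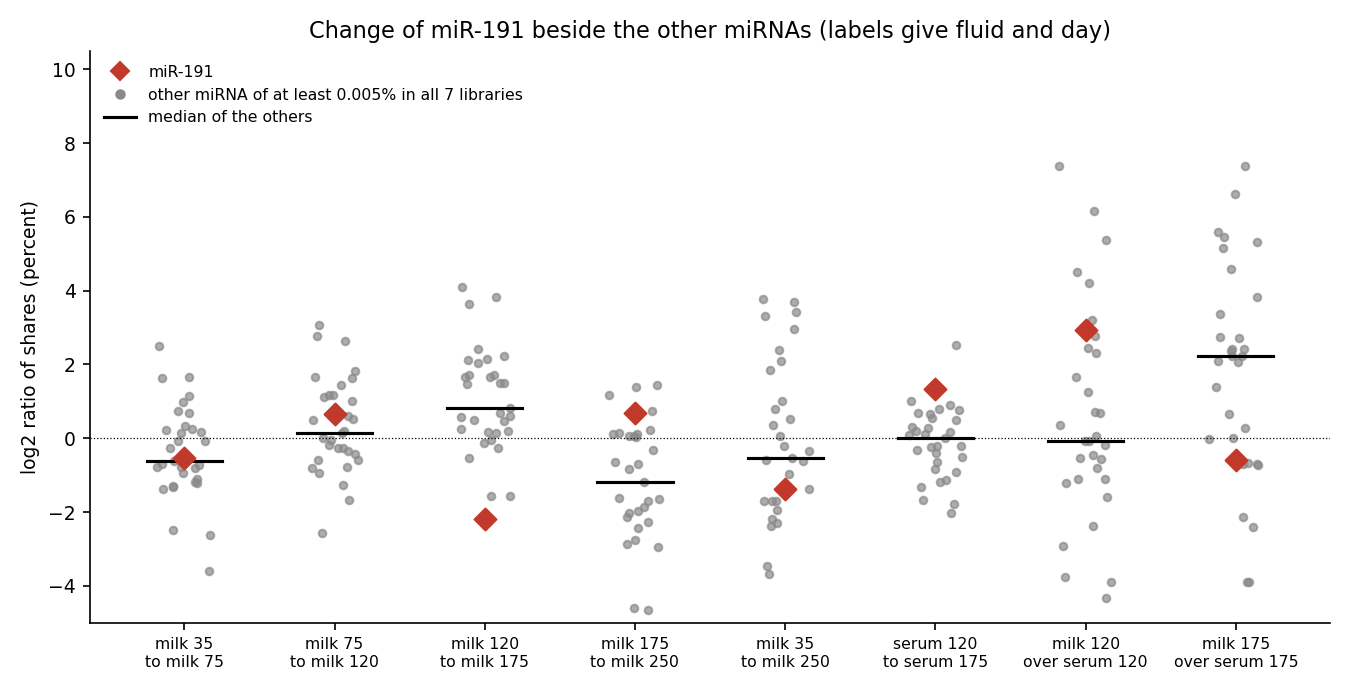
Log2 ratio of shares for each step between days and for milk over serum of the same day, with miR-191 as red diamonds, the 31 other miRNAs of at least 0.005% in all 7 libraries as grey points, and their median as a black line. From milk day 120 to day 175 miR-191 lay below all 31 others, and from serum day 120 to day 175 it lay above 30 of them.

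Since the shares are relative, miR-191 was also set against each of 31 other miRNAs that had at least 0.005% in all 7 libraries. The ratio of miR-191 to such a miRNA is free of the total. From milk day 120 to day 175 miR-191 lost ground to all 31, by a median of log2 -2.99. The least it lost was log2 -0.62, to miR-146b, a miRNA induced in inflammation, and the most was log2 -6.27, to miR-101. From day 175 to day 250 it gained on 27 of the 31, by a median of 1.86. The library of milk day 175 is shared by both steps, so they are not independent.

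Between the other milk days the position of miR-191 was less clear. From day 35 to day 75 it gained on 16 and lost to 15, with a median of log2 0.08. From day 75 to day 120 it gained on 20 and lost to 11, with a median of 0.50. From day 35 to day 250 it gained on 10 and lost to 21, with a median of -0.84. In serum from day 120 to day 175 it gained on 30, and lost to miR-26 alone, by a median of 1.33.

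The spread of miR-191 over libraries was moderate among abundant miRNAs. Its highest milk share was 4.54 times the lowest, against a median of 5.54 over itself and the 31 others, and 10 of them had less spread. The miR-181 entry (miR-181c with miR-181a, which the table does not separate, both known from lymphocytes) had the least at 1.501-fold, and miR-182, of sensory and epithelial cells, the most at 49.4-fold. Over all 7 libraries the value of miR-191 was 7.60, against a median of 14.6, and 9 had less. Against the steady miR-181 entry, miR-191 was 5.997, 3.72, 8.73, 1.69 and 2.66 times as abundant in milk in order of day, and 1.84 and 4.04 times in serum. The day 120 peak, the day 175 low and the rise in serum all appeared in this ratio too.

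The share of miR-191 sets how much is left for all other miRNAs, which in milk was 59.6%, 72.0%, 56.2%, 90.3% and 84.5% in order of day. To express another miRNA as percent of what remains, its share is multiplied by 1.68, 1.39, 1.78, 1.11 and 1.18 on these days. In serum the factors are 1.06 and 1.17. If miR-191 alone had changed between days 120 and 175, every other miRNA would have stood 1.61-fold higher at day 175. From day 75 to day 120 the same arithmetic gives a factor of 0.780.

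This bore on the direction of many other miRNAs at the step from day 120 to day 175. Among the 45 with at least 0.005% in both libraries, 35 had a higher share at day 175 and 10 a lower one. Without miR-191 in the total, 22 were higher and 23 lower. The 13 that turned included miR-375, at 8.23% and 9.78% of all miRNA reads, but 14.6% and 10.8% of the reads other than miR-191. Let-7f had 5.37% and 6.04% on the first scale, and 9.56% and 6.69% on the second. Let-7a, let-7b, miR-10a, miR-10b, miR-25, miR-181b and the miR-181 entry made up the rest of the 9 with at least 0.1% on both days. Leaving out miR-191 shifts every other miRNA by the same log2 0.69 at this step, so those that turned are the ones whose log2 ratio lay between 0 and 0.69. Their number follows from the shares of miR-191 and is no separate result.

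**Figure D3:**
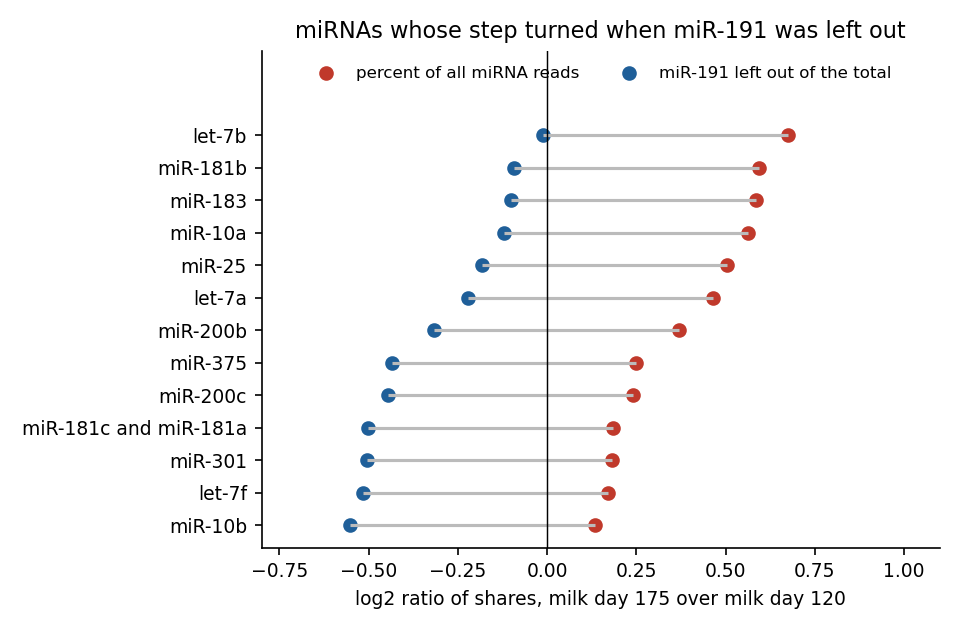
Log2 ratio of shares, milk day 175 over milk day 120, of the 13 miRNAs whose step turned, as percent of all miRNA reads (red) and as percent of the reads other than miR-191 (blue). All 13 lie above 0 with miR-191 in the total and below 0 without it, each shifted by 0.69 on the log2 scale.

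At the other steps fewer turned. From day 35 to day 75, 4 of 37 did, namely miR-375, miR-22, miR-16 and the miR-181 entry, all higher on the full scale and lower without miR-191. From day 75 to day 120, 5 of 44 did, namely miR-30a, miR-148, miR-143, let-7f and let-7i, all lower on the full scale and higher without it. From day 175 to day 250, 0 of 47 turned, and in serum 0 of 47. From day 35 to day 250, 2 of 36 did, of which miR-21 had over 0.1%. Between milk and serum at day 120, 7 of 42 turned, among them miR-92, miR-100 and miR-143. At day 175 miR-27b did, of 45.

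Pearson's r of whole libraries on the percent scale, where the largest shares weigh most, also depended on miR-191. Pearson's r between milk days 35 and 120, taken over the 102 listed miRNAs with 0 for an absent entry, was 0.96 with miR-191 and 0.83 without it. For milk days 120 and 175 it was 0.58 and became 0.78, and for milk days 35 and 250 it was 0.46 and became 0.23. On this scale r was higher for day 120 with day 35 than with day 175, and the gap between these correlations narrowed from 0.96 against 0.58 to 0.83 against 0.78 without it. On log2 of percent plus 0.001 the same pairs had 0.90, 0.94 and 0.84 with miR-191 and 0.90, 0.94 and 0.83 without it. Spearman's rho was 0.85, 0.91 and 0.80 with miR-191 and 0.85, 0.90 and 0.79 without it. On log2 and on ranks the order was thus the reverse, with day 120 closer to day 175 than to day 35, and miR-191 hardly bore on it. Each r runs across miRNAs of a pair of libraries, so its points are no replicates.

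Both fluids were sequenced on days 120 and 175, which lets the share of miR-191 in milk be set against that in the serum of lactating mothers. The milk share of miR-191 exceeded its serum share 7.60-fold on day 120, with 43.8% against 5.77%. Of 60 miRNAs with at least 0.005% in either library, 19 were over 2-fold higher in milk (31.7%). At least 10 others exceeded serum by as much as miR-191 or more. At day 175 the share of miR-191 was 1.503-fold lower in milk, with 9.66% against 14.5%. Of 61 miRNAs on that day, 35 were over 2-fold higher in milk and 13 over 2-fold lower. At least 17 others were as far below serum as miR-191 or farther. Milk minus serum was -4.86 percentage points for miR-191 on that day, the eighth largest difference in size, and -51.6 for miR-10b.

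With miR-10b left out of both totals, the log2 milk to serum ratio was 1.28 at day 120 in place of 2.93, and -1.70 at day 175 in place of -0.59. The direction was the same on each scale tried, and the size was not. Against the 31 miRNAs found in all libraries, miR-191 was relatively higher in milk for 25 at day 120, by a median of log2 3.0. At day 175 miR-191 was relatively higher in milk for 8, with a median of -2.81. MiR-191 therefore passed from the milk side to the serum side of most of these 31 between these days.

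In serum miR-191 was 2.52-fold higher at day 175 than at day 120 (log2 1.33). Of 57 miRNAs with at least 0.005% in either serum library, 8 were over 2-fold higher at day 175 (14.0%), miR-191 included. As percent of all miRNA reads, the blood cell marks above 0.001% were higher at day 175 too, while marks of liver and muscle were lower. MiR-223, of myeloid cells and platelets, had 0.030% and 0.072%, miR-150, of lymphocytes, 0.011% and 0.047%, miR-126, of endothelium and platelets, 0.034% and 0.050%, and miR-451, of red blood cells, 0.041% and 0.054%. MiR-144 had 0.001% on both days and miR-142 was listed in serum at day 175 alone, with 0.001%, while miR-486 and miR-155 were listed in no library. The liver miRNA miR-122 had 0.096% and 0.009%, and the muscle miRNAs miR-1 and miR-133a together 0.017% and 0.003%. The part of blood cells or of these tissues in the serum level of miR-191 was not tested. With miR-10b left out of the total the log2 change of miR-191 was 0.80, which is under 2-fold. On that scale miR-223 and miR-150 were still higher at day 175, by log2 0.73 and 1.56, while miR-126 had 0.02 and miR-451 -0.14. The marks of liver and muscle were lower on it too, miR-122 with log2 -3.95.

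In milk the sum of the blood cell marks was 0.012% at day 120 and 0.056% at day 175, opposite in direction to miR-191. At day 120 miR-223 made up most of the sum, with 0.008% against 0.002% of miR-451. At day 175 miR-451 did, with 0.045% against 0.001% of miR-223. The epithelial marks summed to 17.9% at day 120 and 30.9% at day 175, and as percent of the reads other than miR-191 to 31.8% and 34.2%. Most of the first difference thus goes with the smaller share of miR-191 in the total. Without miR-191 in the total, 3 of the 6 listed marks were higher at day 175 and 3 lower, the latter being miR-375, miR-200b and miR-200c. Their part in the milk level of miR-191 was not tested.

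Between days 120 and 175, 39 miRNAs had at least 0.005% in all 4 libraries. The 4 libraries are the ones used above, so these values are not independent of the steps and ratios already given. For 24 of the 39 the change had opposite signs in milk and serum. In 8 of the 39 the share was lower in milk and higher in serum at day 175. As percent of all miRNA reads, miR-191 alone was over 2-fold lower in milk and over 2-fold higher in serum, which does not hold for serum with miR-10b left out (log2 0.80). Its difference between the fluids, log2 3.51, was the largest of the 39 in this direction. It was followed by miR-26, a growth-restraining miRNA of many tissues, with 2.81, by miR-146b with 2.46 and by miR-92, of the miR-17-92 cluster that promotes growth, with 2.33. In the opposite direction miR-101 differed by -5.88, miR-19b by -5.66 and miR-21 by -4.65. The milk to serum ratio fell below 1 between these days for 4 of the 39, miR-191 included, and rose above 1 for 9.

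**Figure D4:**
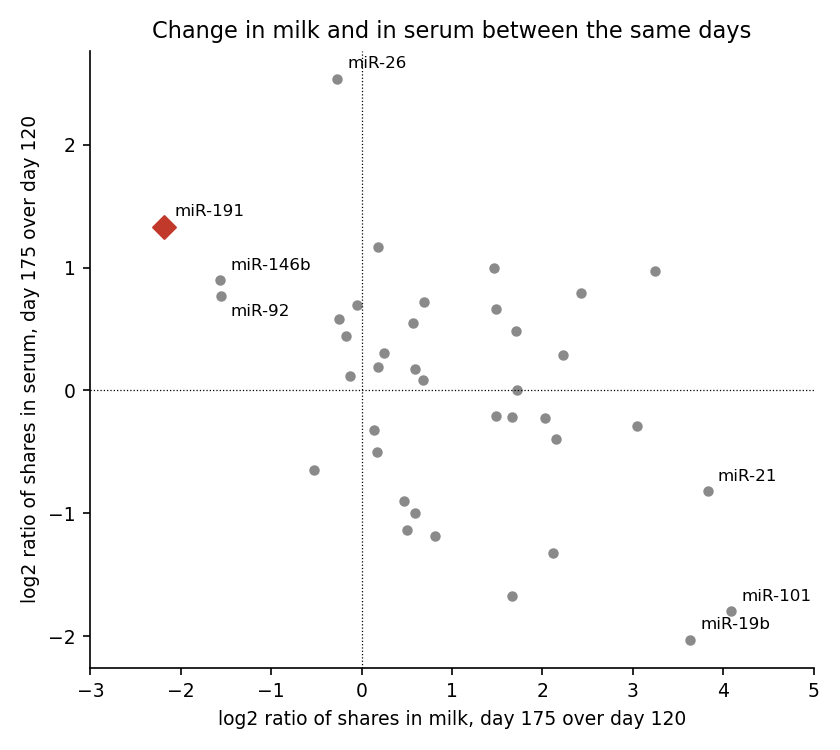
Log2 ratio of shares at day 175 over day 120 in milk (horizontal) and in serum (vertical) for the 39 miRNAs of at least 0.005% in all 4 libraries, with miR-191 as a red diamond. MiR-191 lies farthest to the lower side in milk, at -2.18, and above 0 in serum, at 1.33, while miR-101, miR-19b and miR-21 lie on the opposite side.

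Among the miRNAs often used as references in body fluids, miR-16, miR-103 and let-7i were listed in all 7 libraries, miR-23a in 6 and miR-93 in serum day 120 alone. MiR-423, miR-484 and miR-425 had no entry in any library. MiR-425, the partner of miR-191 in its gene cluster, is thus named in the table but its row is blank. Whether the counting could have assigned reads to it was not tested.

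MiR-16, a miRNA of blood cells and most tissues, held between 0.081% and 0.145% in all 7 libraries. MiR-191 was 326, 193, 516, 118 and 182 times as abundant in milk in order of day, and 71.2 and 111 times in serum. Set against miR-16, miR-191 thus had its high at milk day 120 and its low in serum day 120, as it did in percent. Against miR-103, a miRNA of metabolic regulation, the ratios were 374, 118, 353, 112 and 703 in milk and 231 and 907 in serum. Here the highest milk value fell at day 250, where miR-103 itself had only 0.022%. Against let-7i they were 23.5, 37.0, 65.4, 4.56 and 29.5 in milk and 3.98 and 32.0 in serum. The low at milk day 175 among the milk libraries was common to all 3, and the rise in serum as well.

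The pattern of miR-191 was compared with that of the 31 miRNAs with at least 0.005% in all libraries, by the Pearson correlation of log2 percent plus 0.001 over the 7 libraries. The most similar were miR-26 (r = 0.70), let-7f (0.65), the miR-181 entry (0.64), miR-103 (0.63) and let-7a (0.59). Of these 5, miR-103 had a milk value (day 250, 0.022%) below a serum value (day 120, 0.025%), and the other 4 were higher in every milk library than in either serum library. The order rests on single libraries. Without serum day 120 the r of miR-26 was 0.39, and leaving out milk day 120, milk day 175, serum day 120 or serum day 175 put another miRNA first. The least similar were miR-130a (-0.78), miR-215 (-0.76), a miRNA of gut and kidney epithelium, and miR-27b (-0.74). The 7 points share 2 fluids and relative totals, and the correlations describe these libraries.

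Within the 5 milk libraries alone the order was different. Of 35 miRNAs with at least 0.005% in each, miR-92 was the most similar (r = 0.91), with 3.22%, 1.24%, 2.50%, 0.849% and 0.984% in order of day. It shared with miR-191 the dip at day 75 and the return at day 120. MiR-184 came next with 0.70, and miR-103, miR-16 and let-7f had 0.48, 0.48 and 0.39, while miR-26 had 0.25. The most opposite was miR-143, a miRNA of smooth muscle and stroma, at -0.98, with 0.865%, 1.39%, 1.14%, 5.07% and 3.12%. MiR-141, of the epithelial miR-200 family, followed at -0.92.

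**Figure D5:**
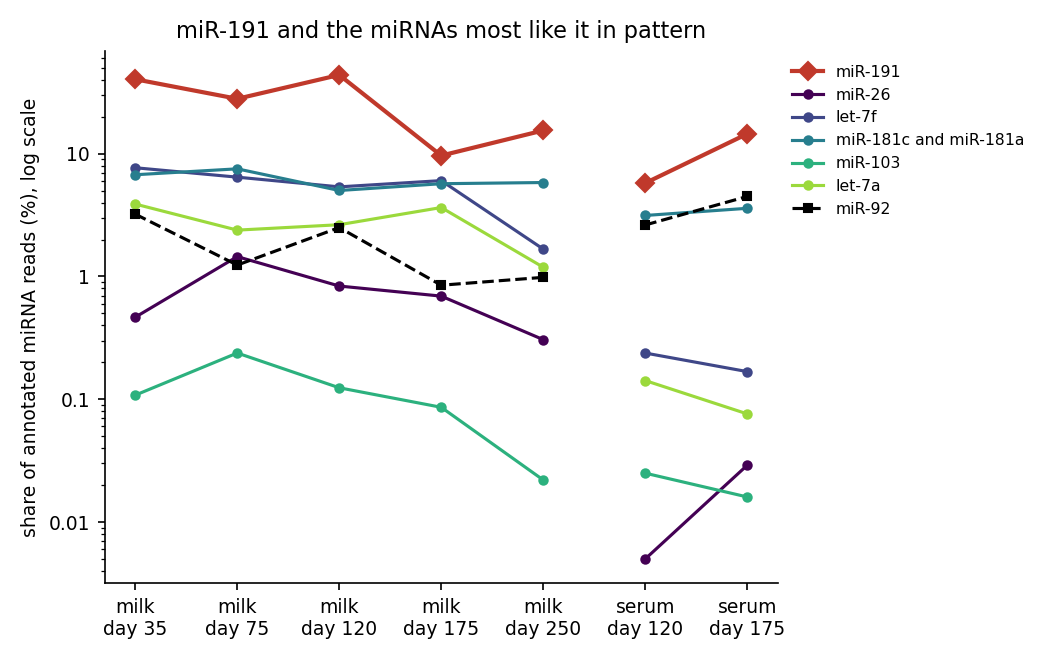
Share of annotated miRNA reads (%, log scale) of miR-191, of the 5 miRNAs most like it over 7 libraries and of miR-92 (dashed), the most like it in milk. MiR-92 dips at milk day 75 and is low at milk days 175 and 250 as miR-191 is, and both are higher in serum at day 175 than at day 120.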

How the data were processed

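Small RNA of skim milk and serum was sequenced on an Illumina HiSeq. According to the methods, the authors trimmed the reads with FastQ and FastX and assigned them to known miRNAs with miRanalyzer, which aligns with Bowtie to miRBase. The opossum genome served as reference. Each deposited value is the percent that a miRNA takes of a library's annotated miRNA reads, given by the authors to 3 decimals. Blank entries and zeros, the latter for the faintest miRNAs, were treated alike, as 0. The number of unused columns was 0. The percentages carry no depth, and the read totals in the study's text were not used here.

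From these values ranks, ratios within and between libraries, and shares with miR-191 or miR-10b left out of the total were computed in Python 3.11.15 with numpy 2.4.6, pandas 2.3.3 and scipy 1.17.1, and plotted with matplotlib 3.10.9. The formulas were tested on simulated data. A pseudocount of 0.001% was added only for log2 values of counts over 2-fold, correlations and likeness. With 1 library for each day and fluid no test was made. The miRNAs named are those next to miR-191 in rank, most or least like it, used as references in body fluids, marks of cell types, or turned in direction without it, besides a few picked for their values. The members and lists were chosen with earlier results of these data known. The alternatives were other totals, the centred log ratio, median of ratios scaling, other limits and pseudocounts, and other correlations. The sequence of miR-191 was not analysed here.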

Additional observations from a re-analysis of the deposited data

Results flagged for a closer look

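Between days 120 and 175 miR-191 moved in opposite directions in both fluids. Its log2 change was -2.18 in milk and 1.33 in serum. The difference between the fluids was not tested, since each rests on 1 library a day.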

How the results depend on the processing

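With 1 library for each day and fluid, no alternative can show the spread between animals. Every step between milk days, the serum step and both milk to serum ratios had the same direction on the 3 other scales, those for serum alone being chosen after the data were examined. Shifts of over 1.5-fold (0.1 for r) are given next. On the centred log ratio and with median of ratios scaling, the log2 change from milk day 120 to day 175 was -3.06 and -3.19, that from day 175 to day 250 was 1.76 and 1.69, and the milk to serum ratio at day 175 was -2.09 and -1.93. Without miR-10b in the total, that ratio was -1.70 and the one at day 120 was 1.28, and the serum shares were 18.7% and 32.5%. The step from day 35 to day 75 shrank from -0.53 to -0.09 with median of ratios scaling. The likeness of miR-26 to miR-191 was 0.49 on the centred log ratio and 0.25 in milk alone, and from 0.39 without serum day 120 to 0.89 without milk day 175. The cause of these shifts was not tested. The miRNA most like miR-191 was miR-429 without milk day 175, miR-184 without serum day 175, miR-103 without serum day 120, the miR-181 entry without milk day 120 and on the centred log ratio, let-7f at a limit of 0.05%, and miR-92 in milk alone. The number of turned miRNAs changed by over 1.5-fold only for day 35 to day 250, to 1, and for milk against serum at day 120, to 4, both at a limit of 0.05%. Leaving out miR-191 changed a library correlation by -0.02 at most on log2 and by less on ranks.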
